A study of Mus musculus with 4 samples.

Results

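The genes of bile acid synthesis, uptake and control were followed in livers of mice with acetaminophen (APAP)-induced acute liver injury. The set held 10 genes of the 27027 entries in the count table, and they were chosen by gene symbol. It comprised 4 genes of synthesis (Cyp7a1, Cyp8b1, Cyp27a1, Cyp7b1), 3 of uptake from blood (Slc10a1, Slco1a1, Slco1b2), the exporter Abcb11 and the regulators Nr1h4 and Nr0b2. All 10 were detected in every library and passed the filter on low counts described below.

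Male C57BL/6J mice, 9 to 12 weeks old and fasted for 10 h, had received 0.9% NaCl as vehicle (control) or APAP at 300 mg/kg by intraperitoneal injection. Livers were taken after 24 h or 48 h. Hepatic RNA was combined in equal shares into 4 pools, of 6 mice for each control group and 7 mice for each APAP group. Each pool gave 1 library of 3′ mRNA sequencing by MACE, a method that counts a fragment from the 3′ end of each polyadenylated transcript. Since there was 1 library per group, the spread between mice is unknown and no p-value is given. Intervals in brackets are 95% exact (Clopper-Pearson) intervals that cover counting error only.

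Reads on genes numbered 4859661 (24 h) and 5191990 (48 h) for the controls, and 5698778 (24 h) and 4938164 (48 h) for APAP. Read counts were divided by median-of-ratios size factors between 0.880 and 1.17 and are called normalized reads. A gene was read as lower or higher where the APAP pool differed at least 2-fold from the control pool of the same time, among the 12113 genes that averaged 10 or more normalized reads over the 4 libraries. The liver label fitted the hepatocyte marker Alb, the gene of serum albumin, which had between 208729 and 254523 reads per library.

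Bile acids are made from cholesterol in hepatocytes. The classic route opens with Cyp7a1, the rate-limiting cholesterol 7α-hydroxylase, and Cyp8b1, the sterol 12α-hydroxylase, directs it towards cholic acid. The alternative route opens with Cyp27a1, the mitochondrial sterol 27-hydroxylase, followed by the oxysterol 7α-hydroxylase Cyp7b1. Bile acids that return in portal blood are taken up with sodium by Slc10a1 (NTCP) and without sodium by organic anion transporters such as Slco1a1 and Slco1b2, and Abcb11 (BSEP) pumps them into the bile canaliculus. Nr1h4 encodes FXR, the nuclear receptor that senses bile acids. Its target Nr0b2 encodes SHP, a repressor of Cyp7a1 and Cyp8b1, and Abcb11 is another FXR target. APAP is oxidised by cytochrome P450 enzymes, mainly Cyp2e1, to a metabolite that injures hepatocytes around the central vein.

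The promoters of 5 genes, chosen with the responses known, are shown with the short motifs that lie before their start. They are the 150 bases before the transcription start in RefSeq (GRCm38.p6), 5′ to 3′ on the gene's own strand. Capitals mark matches, on either strand, to the motifs named below.
Abcb11 (chr2:69342617-69342766, minus strand): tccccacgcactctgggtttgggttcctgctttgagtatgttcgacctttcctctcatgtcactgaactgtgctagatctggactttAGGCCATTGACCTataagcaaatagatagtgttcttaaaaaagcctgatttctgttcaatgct
Slco1b2 (chr6:141629368-141629517, plus strand): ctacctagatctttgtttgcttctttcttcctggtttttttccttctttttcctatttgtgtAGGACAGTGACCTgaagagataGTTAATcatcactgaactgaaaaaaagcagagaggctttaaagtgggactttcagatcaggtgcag
Cyp8b1 (chr9:121916306-121916455, minus strand): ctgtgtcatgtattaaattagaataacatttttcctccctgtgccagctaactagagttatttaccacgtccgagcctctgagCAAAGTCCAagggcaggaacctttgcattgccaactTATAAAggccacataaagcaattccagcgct
Slco1a1 (chr6:141946963-141947112, minus strand): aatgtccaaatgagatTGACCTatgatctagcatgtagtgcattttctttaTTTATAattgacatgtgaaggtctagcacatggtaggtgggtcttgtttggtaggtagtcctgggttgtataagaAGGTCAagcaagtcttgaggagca
Nr0b2 (chr4:133553226-133553375, plus strand): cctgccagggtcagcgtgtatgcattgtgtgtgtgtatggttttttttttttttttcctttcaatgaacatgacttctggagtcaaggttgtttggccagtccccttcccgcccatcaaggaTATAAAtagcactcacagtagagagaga

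Motifs were searched on both strands in the 250 bases before the start, in 9 promoters of 8 of the 10 genes and in all 32817 promoters of the table. Cyp7a1 and Cyp7b1 have no entry there. The inverted repeat AGGTCANTGACCT, the form of site that FXR binds, was searched with 1 mismatch allowed and matched 0.0792% of all promoters. Among the bile acid genes it matched Abcb11, 63 to 51 bases before the start, and Slco1b2, 88 to 76 bases before the start. The nuclear receptor half-site AGGTCA, which is contained in that repeat, matched 14.03% of all promoters and 5 of the 9. The HNF4A core CAAAGTCCA matched 0.384% of all promoters and, of the 9, that of Cyp8b1, 67 to 59 bases before the start. The HNF1 half-site GTTAAT matched 6.44% of all promoters and 2 of the 9. The TATA box TATAAA matched 12.4% and 5 of the 9, among them Cyp8b1 and Nr0b2, where it lay 31 to 26 and 28 to 23 bases before the start. The extended half-site TCAAGGTCA of the receptor LRH-1, which overlaps AGGTCA, matched 0.387% of all promoters and 0 of the 9. Such matches are descriptions of letters and not shown binding sites, and a link between motifs and response was not tested.

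After APAP, 5 of the 10 bile acid genes were lower at 24 h, beside 5.68% of the 12113 genes tested. These were Cyp7a1, Cyp8b1, Slc10a1, Slco1a1 and Abcb11. At 48 h, 7 of the 10 were lower, beside 5.61% of all genes, namely the 4 genes of synthesis and the 3 of uptake. None of the 10 was higher, where 5.85% of all genes were higher at 24 h and 5.76% at 48 h. Cyp7a1, Cyp8b1, Slc10a1 and Slco1a1 were lower at both times, as were 2.4% of all genes. The 2 time points have separate control pools. The median log2 fold of the 10 genes was -1.02 at 24 h and -1.19 at 48 h, and over all genes tested 0.01 and -0.02. In sum, the 10 genes had 12070 and 12050 normalized reads in the controls of 24 h and 48 h, against 4478 and 4482 after APAP.

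The 4 pools were also compared without regard to time. Both APAP pools lay below both control pools in 10 of the 10 genes, compared with 26.3% of all genes tested. When reads were scaled to library totals instead, 8 of 10 did so, and Nr0b2 at 24 h and Nr1h4 at 48 h then turned to 1.06-fold and 1.13-fold above control. The 26.3% holds for the size factors only, and the share of all genes with library totals is not given. In bulk tissue, fewer hepatocytes and less RNA of a gene per hepatocyte cannot be told apart.

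**Figure D1:**
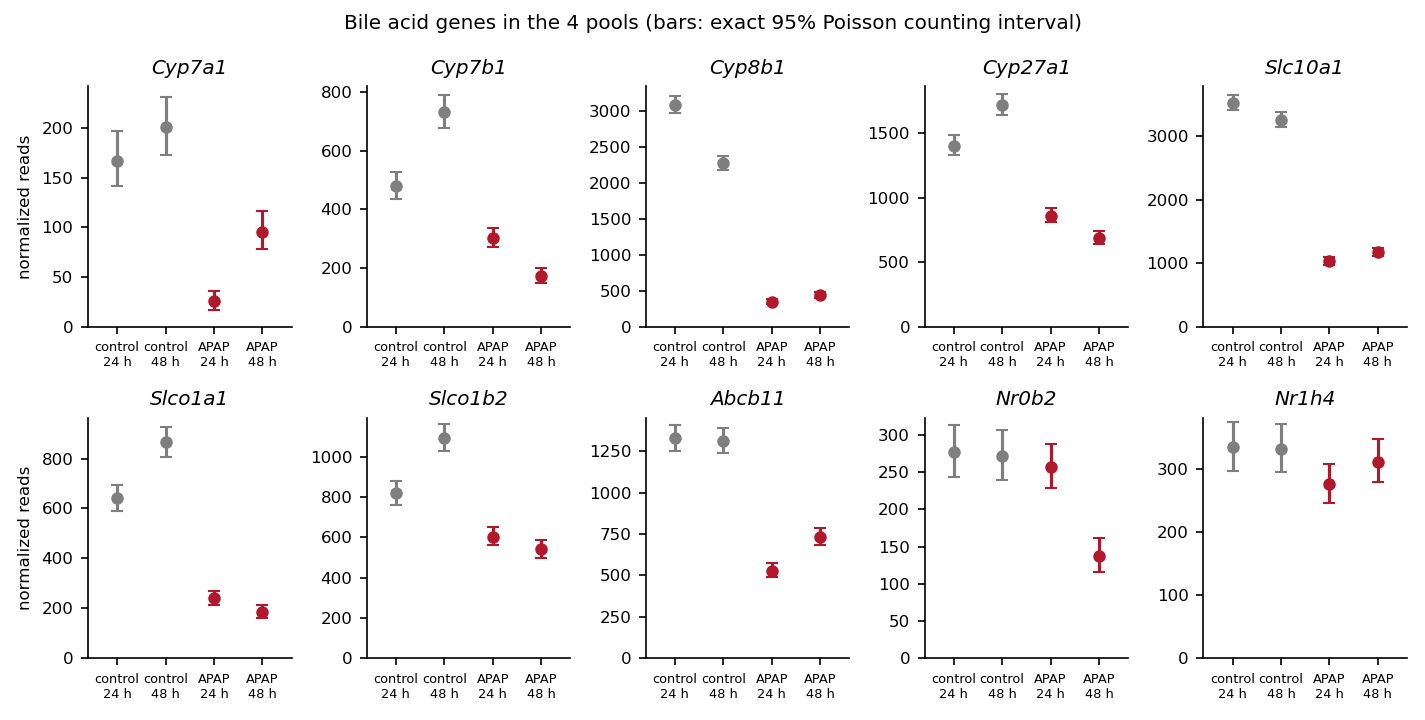
Normalized reads (y axis, from 0) of the 10 bile acid genes in the control pools (grey) and APAP pools (red) at 24 h and 48 h; points are single libraries and bars exact 95% Poisson counting intervals. In Cyp8b1, the controls were at 3089 and 2275 normalized reads and the APAP pools at 351 and 445, while the 4 values of Nr1h4 lay between 275 and 334.

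Among the genes of synthesis, those of the classic route were further below control at 24 h than those of the alternative route. Cyp8b1 (chr9:121914356-121916305, minus strand, 1 exon) had 3089 and 2275 normalized reads in the controls of 24 h and 48 h, against 351 and 445 after APAP. Both APAP values were below both control values. Cyp8b1 was 8.80 times lower at 24 h [7.93 to 9.79] and 5.11 times lower at 48 h [4.62 to 5.66]. By fold it was the gene at place 22 from the lowest of the 12113 at 24 h, and at place 91 at 48 h. The control pools themselves differed, with 1.36 times fewer normalized reads at 48 h [1.28 to 1.44]. Measured against the control pool of the other time, Cyp8b1 was 6.49 times lower at 24 h and 6.94 times lower at 48 h.

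Cyp7a1 (chr4:6265612-6275633, minus strand, 6 exons) had the fewest reads of the set, and its intervals are wide. It had 167 and 201 normalized reads in the controls of 24 h and 48 h, against 25.6 and 95.6 after APAP, from 147, 187, 30 and 102 reads. The APAP pool at 24 h was far below the other 3, and the APAP pool at 48 h lay between. Cyp7a1 was 6.54 times lower at 24 h [4.39 to 10.04] and 2.10 times lower at 48 h [1.64 to 2.70], which put it at places 41 and 593 from the lowest. From 24 h to 48 h, its level in the APAP pools differed 3.74-fold [2.47 to 5.83], with more at 48 h. The 48 h value sits at the threshold, and with library totals it was 1.74 times lower.

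The genes of the alternative route had their lowest levels in the APAP pool at 48 h. Cyp7b1 (chr3:18071950-18243338, minus strand, 6 exons) had 481 and 731 normalized reads in the controls of 24 h and 48 h, against 303 and 173 after APAP. It was 1.59 times below control at 24 h [1.37 to 1.83], short of the threshold, and 4.24 times lower at 48 h [3.597 to 5.02]. Its control pools differed 1.52-fold [1.35 to 1.72], with more at 48 h, so its values depend on the control chosen. Against the other control pool it was 2.41 times lower at 24 h and 2.79 times lower at 48 h.

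Cyp27a1 (chr1:74713574-74737892, plus strand, 9 exons) had 1403 and 1719 normalized reads in the controls, against 861 and 688 after APAP. The groups did not overlap. It was 1.63 times below control at 24 h [1.498 to 1.77] and 2.50 times lower at 48 h [2.29 to 2.73]. All 4 genes of synthesis were thus lower at 48 h, and 2 of 4 at 24 h. Their summed normalized reads were 5140 and 4926 in the controls and 1541 and 1402 after APAP.

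**Figure D2:**
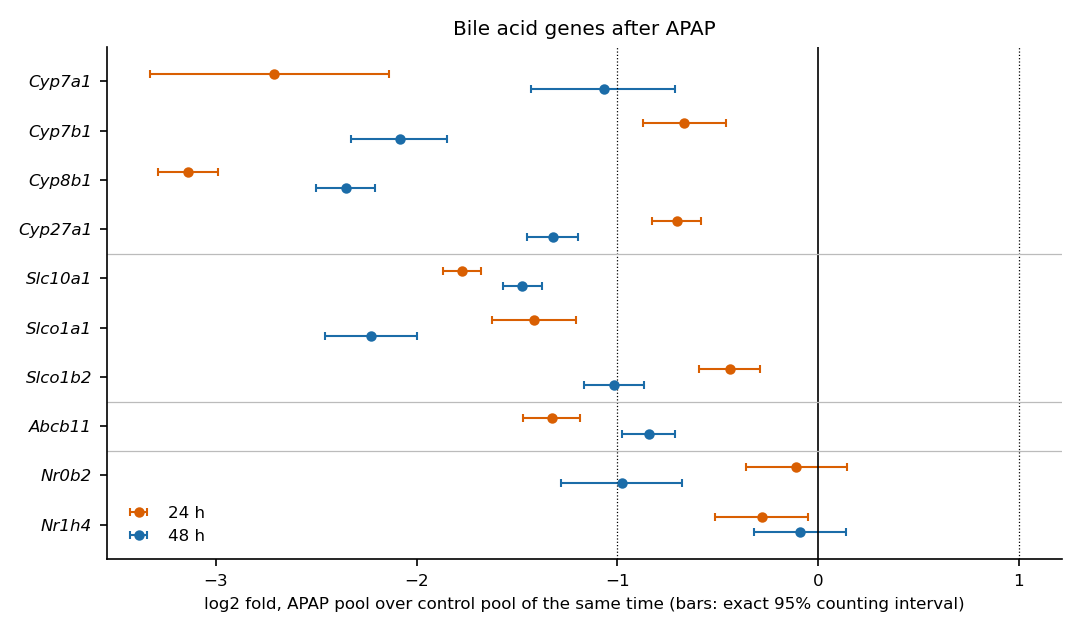
Log2 fold of the APAP pool over the control pool of the same time (x axis) for the 10 bile acid genes, at 24 h (orange) and 48 h (blue); bars are exact 95% counting intervals, dotted lines mark 2-fold, and grey lines part synthesis, uptake, export and control. Cyp8b1 had the lowest value at both times (-3.14 and -2.35), and the intervals of Nr0b2 at 24 h and Nr1h4 at 48 h reached across 0.

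All 3 uptake transporters were lower at 48 h and 2 of 3 at 24 h. Slc10a1 (chr12:80953183-80968705, minus strand, 6 exons), the main sodium-dependent carrier of conjugated bile acids, had 3529 and 3257 normalized reads in the controls, against 1032 and 1174 after APAP. Its control pools were close to each other and its APAP pools were too. It was 3.42 times lower at 24 h [3.20 to 3.66] and 2.78 times lower at 48 h [2.60 to 2.97]. With 1212 and 1252 reads after APAP, Slc10a1 had the most APAP reads of the set.

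Slco1a1 (chr6:141907282-141946962, minus strand, 15 exons) had 640 and 864 normalized reads in the controls, against 240 and 185 after APAP. It was 2.67 times lower at 24 h [2.31 to 3.09] and 4.68 times lower at 48 h [3.999 to 5.50], at places 285 and 101 from the lowest. Slco1b2 (chr6:141629518-141686646, plus strand, 16 exons), the mouse OATP1B transporter, had 817 and 1091 normalized reads in the controls, against 603 and 540 after APAP. It was the least changed of the 3, at 1.36 times below control at 24 h [1.22 to 1.51] and 2.02 times lower at 48 h [1.82 to 2.24]. The 48 h value is at the threshold and was 1.68 times below control with library totals and 1.51 times below the 24 h control pool. Both transporters had about a 1.3-fold difference between the control pools (1.35-fold for Slco1a1 and 1.34-fold for Slco1b2, with more at 48 h). Neither Slco gene shares its last 300 bases with another gene at 95% identity over 100 bases, and no such near copy was found for the other bile acid genes.

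Abcb11 (chr2:69238282-69342616, minus strand, 29 exons) was the gene of the set lower at 24 h but not at 48 h. It had 1329 and 1313 normalized reads in the controls, against 530 and 732 after APAP. The control pools agreed within counting error and both APAP pools were below them. Abcb11 was 2.51 times lower at 24 h [2.27 to 2.77] and 1.79 times below control at 48 h [1.64 to 1.97]. Between the APAP pools it differed 1.38-fold [1.24 to 1.54], with more at 48 h.

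The 2 regulators were within 2-fold of control at both times. Nr1h4 (chr10:89454234-89533585, minus strand, 10 exons) had 334 and 331 normalized reads in the controls, against 275 and 311 after APAP. It was 1.22 times below control at 24 h [1.03 to 1.43] and 1.06 times below at 48 h [0.909 to 1.25], an interval that holds 1, and at 48 h it was above control with library totals, as given above. Nr0b2 (chr4:133553376-133556536, plus strand, 2 exons) had 276 and 271 normalized reads in the controls, against 256 and 138 after APAP. At 24 h the difference of 1.08 times [0.906 to 1.28] was within counting error and turned to the other side with library totals, and at 48 h Nr0b2 was 1.97 times below control [1.60 to 2.43], just short of the threshold. Against the control pool at 24 h it was 2.00 times lower.

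The folds at 24 h and 48 h were then set against each other. The ratio of the fold at 48 h to that at 24 h was taken for each gene, with an exact conditional interval for the 4 counts. It was above 1 in 4 genes, that is, closer to control at 48 h: Cyp7a1 at 3.11 [1.93 to 5.13], Cyp8b1 at 1.72 [1.49 to 2.00], Abcb11 at 1.40 [1.22 to 1.60] and Slc10a1 at 1.23 [1.12 to 1.35]. It was below 1 in 5 genes, which lay further below control at 48 h: Cyp7b1 at 0.374 [0.300 to 0.467], Nr0b2 at 0.548, Slco1a1 at 0.570, Cyp27a1 at 0.652 and Slco1b2 at 0.671. For Nr1h4 the interval held 1 (1.14 [0.909 to 1.43]). These ratios depend on the control pools. When the control of the other time was used, an alternative chosen after the data were seen, the interval stayed on its side of 1 for Cyp7a1 (4.49 [2.78 to 7.37]), Abcb11 (1.37 [1.19 to 1.56]) and Nr0b2 (0.528 [0.402 to 0.694]). It held 1 for Cyp7b1 (0.865), Cyp8b1 (0.935), Cyp27a1 (0.979), Slc10a1 (1.05) and Slco1a1 (1.04), with Cyp8b1 and Slco1a1 on the other side, and for Slco1b2 it lay above 1 (1.20 [1.03 to 1.39]). With the sum of both control pools, Cyp7b1 was at 0.569, Slco1a1 at 0.769, Cyp27a1 at 0.799, Slco1b2 at 0.896 and Cyp8b1 at 1.27. With the hepatocyte markers set to no change, the interval for Slc10a1 held 1 (1.10 [0.996 to 1.20]). These intervals do not cover the spread between mice.

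**Figure D3:**
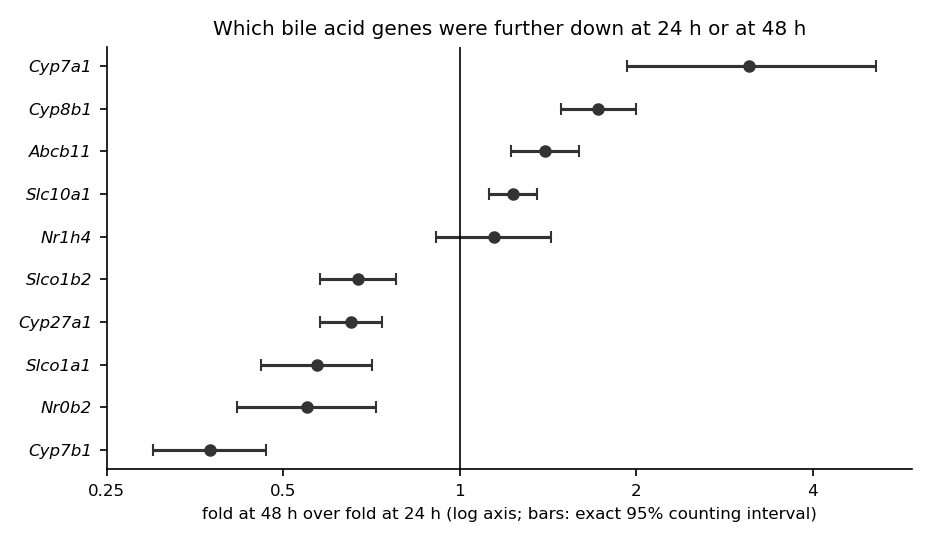
Fold at 48 h over fold at 24 h (x axis, log scale) for the 10 bile acid genes, sorted; points are the ratio and bars its exact 95% counting interval. Cyp7a1, Cyp8b1, Abcb11 and Slc10a1 lay above 1, Nr1h4 reached across 1, and the other 5 lay below it, down to 0.374 for Cyp7b1; with the control pools exchanged only Cyp7a1, Abcb11 and Nr0b2 kept an interval on the same side of 1.

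Part of these differences lies in the controls. The control pool at 48 h differed less than 2-fold from that at 24 h in all 10 genes. Between the control pools 2.34% of genes tested were lower and 2.86% higher, so this is not particular to the 10. The counting interval between the control pools lay below 1 in 2 of the 10 genes and above 1 in 4. Without reference to controls, the APAP pool at 48 h over that at 24 h was 0.569 for Cyp7b1 [0.474 to 0.682], 0.538 for Nr0b2 [0.438 to 0.657] and 0.896 for Slco1b2 [0.801 to 1.001], whose interval held 1. Cyp7a1, Cyp8b1, Slc10a1 and Abcb11 had more normalized reads in the APAP pool at 48 h than at 24 h, and Cyp7b1, Cyp27a1, Slco1a1 and Nr0b2 fewer.

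The other genes of the pathway were taken from a list. Of 42 such genes on the list, 41 were in the table and 37 passed the filter. At 24 h 3 of the 37 (8.11%) were lower and 0 higher, beside 5.68% and 5.85% of all genes tested. At 48 h 6 (16.2%) were lower and 1 (2.70%) higher, beside 5.61% and 5.76%. The other 29 stayed within 2-fold at both times. Their median log2 fold was -0.15 at 24 h and -0.18 at 48 h. Scaled to library totals, Akr1c6 at both times, Slco2b1 at 24 h, and Slc27a5 and Abcb4 at 48 h were no longer 2-fold lower. Fgf15, the intestinal hormone that represses Cyp7a1, was on the list but had no entry in the count table under that symbol, so it was not analysed.

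Among enzymes of synthesis, Akr1c6, a hydroxysteroid dehydrogenase, was lower at both times, 2.01 times at 24 h [1.91 to 2.12] and 2.27 times at 48 h [2.14 to 2.40]. Slc27a2, which activates the side chain of bile acid precursors, had 1522 and 2464 normalized reads in the controls, against 1175 and 944 after APAP, and was 2.61 times lower at 48 h [2.42 to 2.81] and 1.30 times below control at 24 h. Cyp2c70, which makes muricholic acids in mice, was 2.41 times lower at 48 h [2.26 to 2.57] and 1.73 times below control at 24 h. Both depend on the control, since against the pool of the other time Slc27a2 was 2.10 times lower at 24 h and 1.61 times below at 48 h, and Cyp2c70 was 2.47 times lower and 1.69 times below. Cyp39a1, a 24-hydroxycholesterol 7α-hydroxylase, lay on opposite sides of control, 1.53 times below at 24 h [1.17 to 2.01] and 1.34-fold above at 48 h [1.09 to 1.66]. Of the conjugating enzymes, Slc27a5, which forms bile acid CoA esters, was 2.04 times lower at 48 h [1.94 to 2.16] but 1.52 times below the 24 h control, and Baat, which joins them to taurine or glycine, was 1.43 and 1.46 times below control.

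Among transporters, Slco2b1 was 2.18 times lower at 24 h [1.86 to 2.55] and 1.87 times below control at 48 h [1.593 to 2.20]. Measured against the 48 h control pool, its 24 h value was 1.95 times below. Slc51b, the OSTβ subunit of the basolateral exporter, was 4.58 times lower at 24 h [1.91 to 12.6] and 3.43 times at 48 h [1.63 to 7.87]. Slc51b had only 24 and 30 control reads and 7 and 10 APAP reads. Its partner Slc51a had 1 read in all. Abcb4, the phospholipid flippase of bile, was 2.06 times lower at 48 h [1.75 to 2.42], 1.91 times below the other control pool, and 1.29 times below control at 24 h. Abcc4, a basolateral exporter, was the only pathway gene that was higher: 13 reads in the control pool at 48 h against 46 in the APAP pool gave 3.09-fold [1.64 to 6.24]. Abcc2 and Abcc3, exporters of conjugates, stayed within 1.2-fold, and Slco1a4 had 54.6 and 121 normalized reads in the controls against 92.0 and 106 after APAP, so that its control pools differed 2.22-fold.

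Of the 13 regulators tested besides Nr1h4 and Nr0b2, none passed 2-fold at either time. With library totals or the other control pool, S1pr2, a receptor for conjugated bile acids, passed it at 48 h. The counting interval lay above 1 in 5 of the 13 and below 1 in 2 at 24 h. At 48 h it lay above 1 in 1 and below 1 in 0. The highest at 24 h were Nr1i3 at 1.64-fold [1.39 to 1.94] and Mafg at 1.56-fold [1.17 to 2.09]. Against the other control pool they were 1.79-fold and 1.51-fold above. Hnf4a, a nuclear receptor that drives many of these genes, was 1.17-fold above control at 24 h [1.06 to 1.28] and 1.06 times below at 48 h. Nr5a2 (LRH-1) was within counting error of control at both times, at 1.06 times below and 1.17-fold above. Fgfr4 and Klb, the receptor pair for the hormone Fgf15, were 1.43-fold above control [1.05 to 1.96] and 1.502 times below [1.03 to 2.19] at 24 h, and both lay within 1.1-fold at 48 h. Against the control pool of the other time, Klb was 1.01 times below at 24 h and 1.53 times below at 48 h. Hnf4a was then 1.02-fold above at 24 h, and Fgfr4 1.615-fold above. Ch25h, a cholesterol 25-hydroxylase, did not pass the filter: it had 0 reads in both control pools, 16 in the APAP pool at 24 h and 2 at 48 h, at least 3.996-fold higher at 24 h against a floor of 3 reads, with a counting interval from 2.89.

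**Figure D4:**
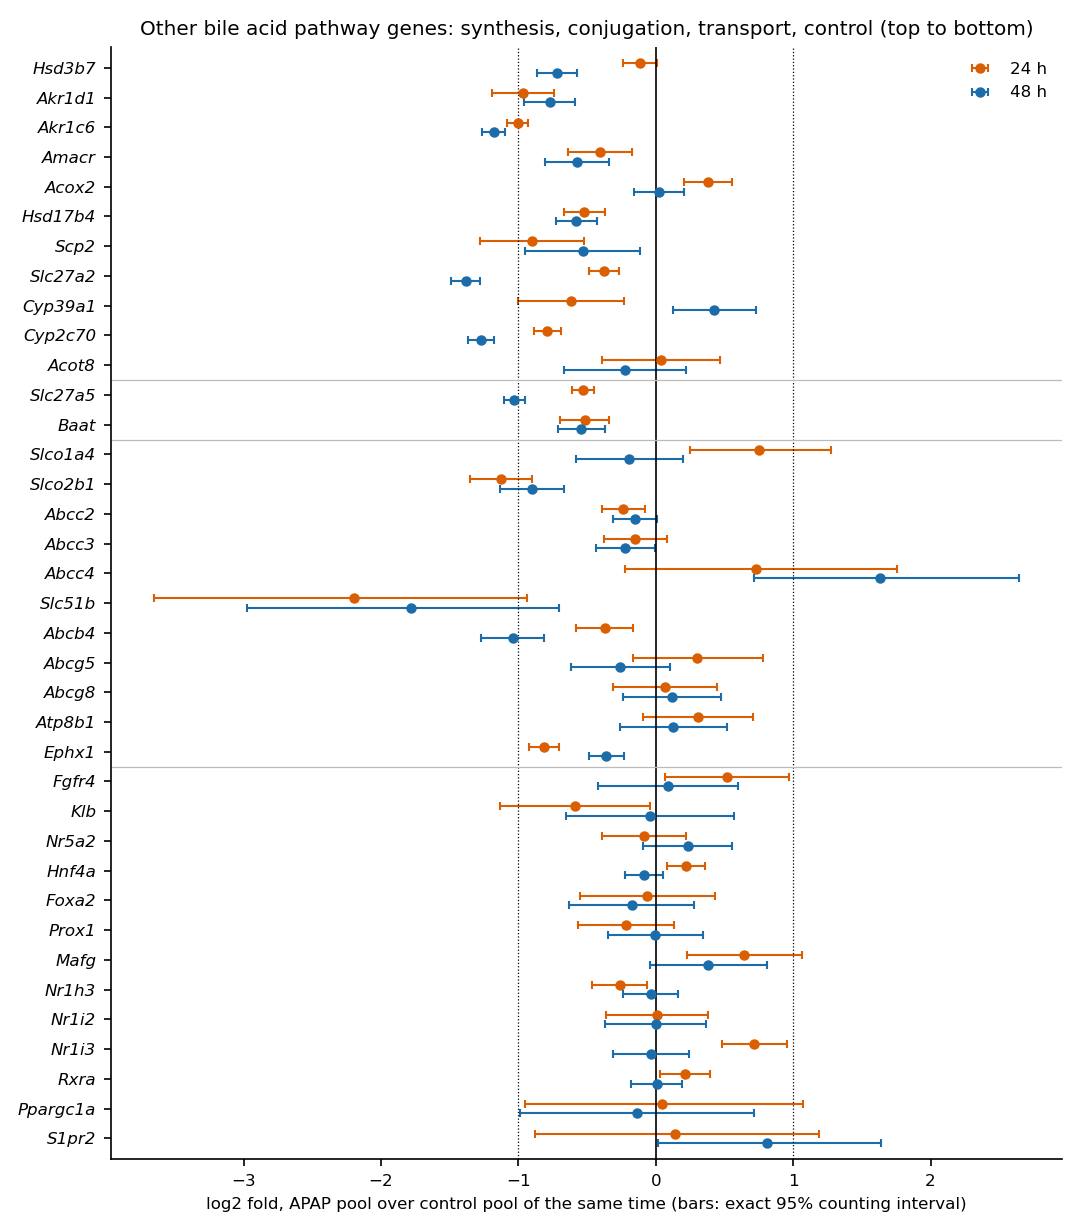
Log2 fold of the APAP pool over the control pool of the same time (x axis) for the 37 other pathway genes, at 24 h (orange) and 48 h (blue), from synthesis at the top through conjugation and transport to control; bars are exact 95% counting intervals and dotted lines mark 2-fold. Slc51b lay lowest at both times with wide intervals, Abcc4 highest at 48 h, and all 13 regulators stayed between the dotted lines.

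Markers of liver zones and cell types differed between the pools as well. Of the 9 pericentral markers tested, 8 were lower at each time, and their median log2 folds were -2.00 (24 h) and -2.03 (48 h). The summed level of the 10 listed pericentral genes was 3051 and 3313 RPM (reads scaled to the library total) in the controls and 1424 and 1104 RPM after APAP, and Glul, the glutamine synthetase of the innermost pericentral hepatocytes, was 9.33 and 11.8 times lower. Cyp2e1, which activates APAP, was 1.61 times below control at 24 h and 2.71 times lower at 48 h. Among the 10 periportal markers, 4 were lower and 1 higher at 24 h, and 2 lower and 1 higher at 48 h, with medians of -0.27 and 0.10. The 11 general hepatocyte markers in the table had medians of -0.19 and -0.02. Of these 0 were lower, and 2 were higher at 24 h, the fibrinogen chains Fga at 2.82-fold and Fgb at 2.70-fold, with 0 higher at 48 h. Alb was 1.15 and 1.01 times below control. The part of cell loss or zone in the bile acid values was not tested.

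The same comparison was made for markers of other cell types. Of the 9 macrophage and neutrophil markers tested, 4 were higher at 24 h and 5 at 48 h. The summed level of the 10 listed was 165 and 174 RPM in the controls and 271 and 431 RPM after APAP. The neutrophil gene S100a8 was 20.8-fold and 9.27-fold higher, whereas the Kupffer cell gene Clec4f was 1.87 times below control at 24 h and 1.02 times below at 48 h, and Csf1r was within 1.1-fold at both times. Among 7 stellate cell markers, 1 was higher at 24 h and 5 at 48 h, Acta2 by 2.16-fold and 13.6-fold. Of 6 endothelial markers 1 was higher at each time. Of 9 cholangiocyte markers 4 passed the filter, and 1 was higher at each time: Sox9 3.97-fold at 24 h and Spp1 2.14-fold at 48 h. The summed level of the 9 was 46.1 and 64.3 RPM in the controls and 117 and 103 RPM after APAP. Much of this sum came from Sox9 (11.9 and 13.3 RPM in the controls, 53.9 and 28.55 RPM after APAP). Spp1 had 10.7 and 13.3 RPM in the controls and 23.2 and 34.2 RPM after APAP. The sum is thus not a rise of all the markers on the list. The defining cholangiocyte marker Krt19 had between 6 and 13 reads in every library, and Cftr was at 0 in 3 of them.

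**Figure D5:**
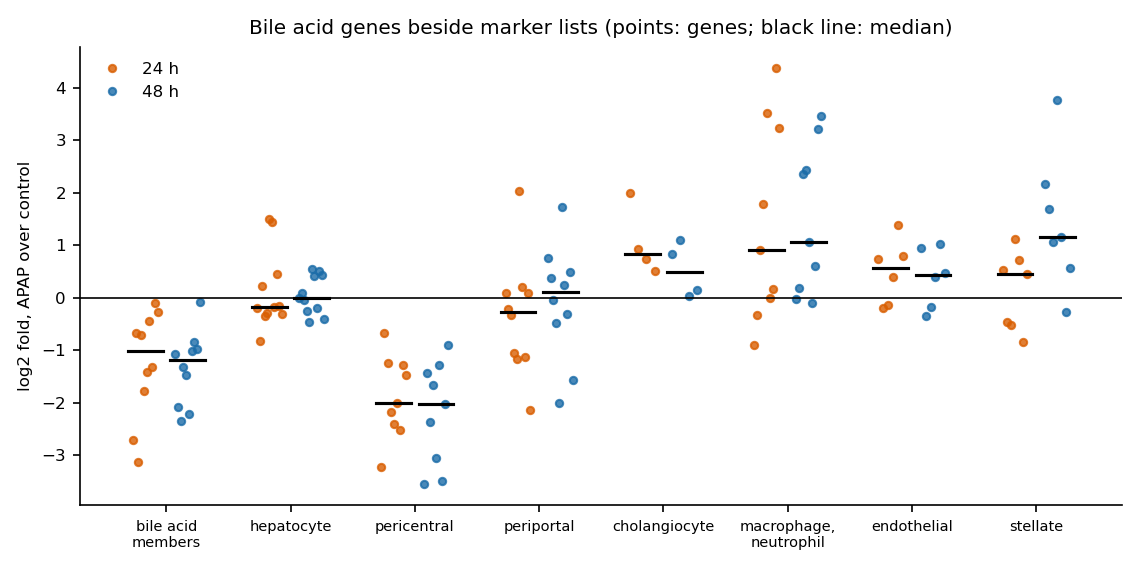
Log2 fold of the APAP pool over the control pool (y axis) for the genes of each list (x axis), at 24 h (orange) and 48 h (blue); each point is a gene and black lines are medians. The medians of the bile acid genes (-1.02 and -1.19) lay between those of the hepatocyte markers (-0.19 and -0.02) and the pericentral markers (-2.00 and -2.03). Single bile acid genes ran from -3.14 to -0.11 at 24 h and from -2.35 to -0.09 at 48 h.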

How the data were processed

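Liver RNA pools of vehicle-treated and APAP-treated mice were sequenced by MACE at 24 h and 48 h, 1 library per pool. The authors removed duplicates by unique molecular identifiers, trimmed with cutadapt, clipped poly(A), mapped to mm10 and deposited HTSeq read counts per gene; tool versions are not given in the sources used here. The deposited RPM values, log2 ratios, p-values and FDR values of the authors were not used.

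Size factors came from DESeq2 1.42.0, with edgeR 4.0.16 (TMM) as an alternative, in R 4.3.3. Neither tool's test was run. Folds used a floor of 3 reads. Intervals (95%, scipy 1.17.1) ignore errors of size factors, mice and pools. Positions came from GENCODE M21 and gene ends were compared with blastn 2.17.0. The procedure was tested on simulated data. Members, lists, thresholds and alternatives were chosen with earlier results of these data known. Named are all members, pathway genes at 2-fold or more whose interval excludes 1, and listed genes of special role. Ch25h, Cyp39a1, Nr1i3, Mafg, Akr1d1 and the Slco neighbours were named after their values were seen. The floor of 3 reads is 0.526 to 0.617 RPM.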

Additional observations from a re-analysis of the deposited data

Results flagged for a closer look

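Cyp39a1 lay on opposite sides of control at the 2 times, with a fold of 0.652 at 24 h and 1.34 at 48 h, from 123 and 151 control reads and 107 and 232 APAP reads. Each counting interval excluded 1 and the ratio of the folds was 2.06 [1.46 to 2.91], but with 1 pool per group the difference was not tested over mice.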

How the results depend on the processing

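In 140 folds of the 10 bile acid genes under other settings, 101 stayed within their counting interval and 39 moved. The 101 include 20 with a floor of 10 reads, which could not move, since the lowest count was 30 reads. They also include all 20 with a pseudocount of 1, which is small beside these counts. Among folds whose main interval excluded 1, 0 changed side. The intervals of Nr0b2 at 24 h and Nr1h4 at 48 h held 1, and with library totals these folds turned to 1.06 and 1.13. Of 50 ratios between the times 38 stayed, 9 moved and 3 changed side. The 3 were Cyp8b1 (0.935), Slco1a1 (1.04) and Slco1b2 (1.20) with the other control pool, a setting for ratios that was chosen after seeing the data; the cause was not tested. Calls at 48 h that rest near 2-fold are the least firm: Cyp7a1 and Slco1b2 dropped out with library totals, with the sum of both control pools, with the other control pool and where the whole interval had to pass 2-fold, and Slco1b2 also with hepatocyte scaling. Cyp7b1 at 24 h was lower, and so counted, with the other control pool and the sum of both. Library totals moved the median of all genes to 0.19 at 24 h and 0.25 at 48 h (log2), and hepatocyte scaling to 0.19 at 24 h. With 1 library per group and no replicate numbers in the labels, no fit with a replicate block was made.

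Of the bile acid genes, 2 were lower at 24 h and 1 at 48 h at a threshold of 5-fold, and lower at both times were 7 at 1.5-fold and 1 at 5-fold. The shares of all genes tested are not given for 1.5-fold and 5-fold, nor for the other scalings, control pools, filter and interval rule. The counts in this paragraph thus cannot be set against such shares. Of the pathway genes, 4 were higher at 24 h at 1.5-fold and 1 with no filter (Ch25h). At 48 h 2 were higher with the other control pool, 1.5-fold or library totals, and 0 at 5-fold or where the interval had to pass. At 24 h 9 were lower at 1.5-fold, 1 with hepatocyte scaling or library totals, and 0 at 5-fold or by interval. At 48 h 3 were lower by interval or library totals and 0 at 5-fold. Lower at both times were 5 at 1.5-fold, 1 with TMM, the other control pool, hepatocyte scaling or library totals, and 0 at 5-fold or by interval.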

Other observations

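Slco1a1 and Slco1b2 lie in a cluster of related transporter genes, whose other members were looked at after the values of those genes were seen. Slco1a4 was 1.69-fold above control at 24 h [1.19 to 2.42] and 1.14 times below at 48 h [0.873 to 1.498]. It was thus lower at neither time, whereas Slco1a1 was lower at both times and Slco1b2 at 48 h. Its direction depends on the control: against the pool of the other time, Slco1a4 was 1.32 times below at 24 h and 1.94-fold above at 48 h. Slco1a5 had 0 reads in all 4 pools, Slco1a6 between 4 and 10 and Slco1c1 between 2 and 6, too few to compare.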
